A study of Mus musculus with 3 samples.

Results

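The interleukin 1 and tumour necrosis factor (TNF) ligands and receptors examined here are 10 genes, chosen by symbol, out of 21750 features in the count matrix of 1 single-cell RNA library of mouse hippocampus. They are the ligands Il1a, Il1b, Il18, Tnf and Il6, the interleukin 12 subunit Il12b, the interleukin 1 receptor antagonist Il1rn, and the receptors Il1r1, Tnfrsf1a and Tnfrsf1b. All 10 were found among the features by symbol, each with 1 Ensembl ID. The question put to the data was which cell types hold the ligand transcripts and which hold those of the receptors.

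The cells came from 5 Aldh1l1CreERT2;Rosa26-LSL-tdTomato mice, pooled, so no cell can be assigned to an animal. In these mice a tamoxifen-inducible recombinase driven from the astrocyte gene Aldh1l1 switches on the red reporter tdTomato. The hippocampus had received AAV-TIGRi-Hopx, a Cre-dependent vector that represses Hopx and also encodes EGFP. Mice were killed 3 weeks after tamoxifen, and the dissociated cells were sorted to enrich tdTomato-positive and EGFP-positive cells. Every cell was from an injected hippocampus, and no library without the vector was used here, so an effect of the vector, the injection or the Hopx repression on these genes cannot be told apart from the resting state. The 2 chromatin samples of cultured primary astrocytes, anti-Flag and IgG, were not analysed here.

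The matrix held 6672 barcodes, where the labels give a target of 6000 cells, and 6485 passed the filters of at least 500 genes and at most 15% mitochondrial transcripts. Passing barcodes had a median of 5564 unique molecular identifiers (UMIs, each counting 1 captured transcript), with a range of 610.0 to 42440. Cell types were gated on 8 marker genes each, none of them among the 10 genes. A barcode was gated when at least 3 of a type's 8 markers had 2 or more UMIs and no other type came close, and 4978 barcodes (76.8%) were gated. These were 2092 microglia, 1377 endothelial, 571 choroid plexus, 416 ependymal, 235 border macrophage, 127 astrocyte and 86 oligodendrocyte cells, plus 74 cells of 9 rarer types. Astrocytes, the cells the sort was meant to enrich, were thus a small part of the gated cells. Among ungated barcodes, 40 had the astrocyte markers as their leading set and 240 the ependymal ones. Some ungated barcodes scored for both sets, so these counts do not cover every barcode with astrocyte markers. The astrocyte values below cover gated cells only. Levels below are UMIs of the gene per 1000000 UMIs of the cell type (CPM) with exact 95% Poisson intervals, which cover counting error only. With 1 library there is no replicate check, cells are not replicates, and no p-value is given.

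Interleukin 1 alpha and beta are alarm cytokines that act on the receptor encoded by Il1r1, and Il1rn encodes a secreted antagonist that occupies that receptor without signalling. TNF acts through a broadly expressed receptor, encoded by Tnfrsf1a, and a more restricted one, encoded by Tnfrsf1b. Both pathways lead to the transcription factor NF-kB and to adhesion molecules, chemokines and further cytokines. Interleukin 1 beta and interleukin 18 are made as precursors that inflammasome caspases cut, so a transcript count does not measure the active cytokine. In the brain, microglia are known as a main source of interleukin 1 and TNF, and endothelial cells as a main carrier of the interleukin 1 receptor.

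The promoters of the 3 ligand genes with the highest counts, and of Il6, show how the letters near the start site differ between them. The sequences are from RefSeq on GRCm38.p6, an older build than the GRCm39 used for the counts, and run 5′ to 3′ on the gene's strand over the 120 bases before the annotated start. They lie at chr2:129309973-129310092 on the minus strand for Il1a, chr2:129371140-129371259 on the minus strand for Il1b, chr17:35202008-35202127 on the minus strand for Tnf, and chr5:30012994-30013113 on the plus strand for Il6. Capitals mark a match to TATAAA, the letters of a TATA box, to TGANTCA, those of an AP-1 site, or to an NF-kB site spelled GGGA, any 2 bases, then TTCC.
Il1a: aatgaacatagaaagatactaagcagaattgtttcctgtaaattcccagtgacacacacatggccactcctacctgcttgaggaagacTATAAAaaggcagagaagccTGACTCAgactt
Il1b: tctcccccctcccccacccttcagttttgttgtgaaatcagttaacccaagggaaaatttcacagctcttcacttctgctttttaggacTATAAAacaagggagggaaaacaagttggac
Tnf: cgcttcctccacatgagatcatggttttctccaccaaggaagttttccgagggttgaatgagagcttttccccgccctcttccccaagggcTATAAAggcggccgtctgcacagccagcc
Il6: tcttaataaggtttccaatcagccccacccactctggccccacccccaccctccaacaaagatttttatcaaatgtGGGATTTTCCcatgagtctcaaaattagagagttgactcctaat

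Il1a, Il1b and Tnf each had TATAAA, with its first base 32, 31 and 29 bases before the start. All 13 annotated promoters of the 10 genes were matched, and 250 bases before each start were searched on both strands. TATAAA was found in 12.4% of 32851 mouse promoters of that length, TGANTCA in 6.75% and the NF-kB letters in 1.21%. Among the 10 genes the NF-kB letters were found for Il6, and for none of the other 9 genes. TGANTCA was found for Il1a, beyond the stretch shown for Il6, and for Il1rn. Il18 had TATAAA on the opposite strand, 170.0 to 175 bases before its start, away from the usual place. The promoters of Il12b and the 3 receptor genes held none of these letters. A match is a description of the letters and shows no binding.

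Of the gated cells, microglia held most interleukin 1 transcripts. Il1a was at 1028 CPM (1011 to 1044) in microglia and 14.4 CPM (12.7 to 16.3) in all other gated cells together, a ratio of 71.4 (63.1 to 81.1). Il1b was at 1127 CPM (1110 to 1144) in microglia and 32.0 CPM (29.4 to 34.7) in the others, a ratio of 35.2 (32.4 to 38.4). Against all other passing barcodes, ungated ones included, the ratios were 8.32 and 6.505 for Il1a and Il1b, and against gated cells of no myeloid type the Il1b ratio was 98.7. Of the UMIs in gated cells, microglia held 98.3% for Il1a and 96.7% for Il1b. Of the UMIs in all passing barcodes they held 82.1% for Il1a and 78.2% for Il1b, and ungated barcodes 16.5% and 19.1%. The same direction held for 9 of the 10 genes, at 2-fold or more, while Il1r1 was lower. Among all 15042 genes with at least 10 UMIs in this comparison, 13.9% were at least 2-fold higher and 40.7% at least 2-fold lower in microglia. Of 17 genes listed as immediate early and dissociation genes, 5 were at least 2-fold higher and 1 lower in microglia. The part of cell handling in the microglial levels and shares of cells was not tested.

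**Figure D1:**
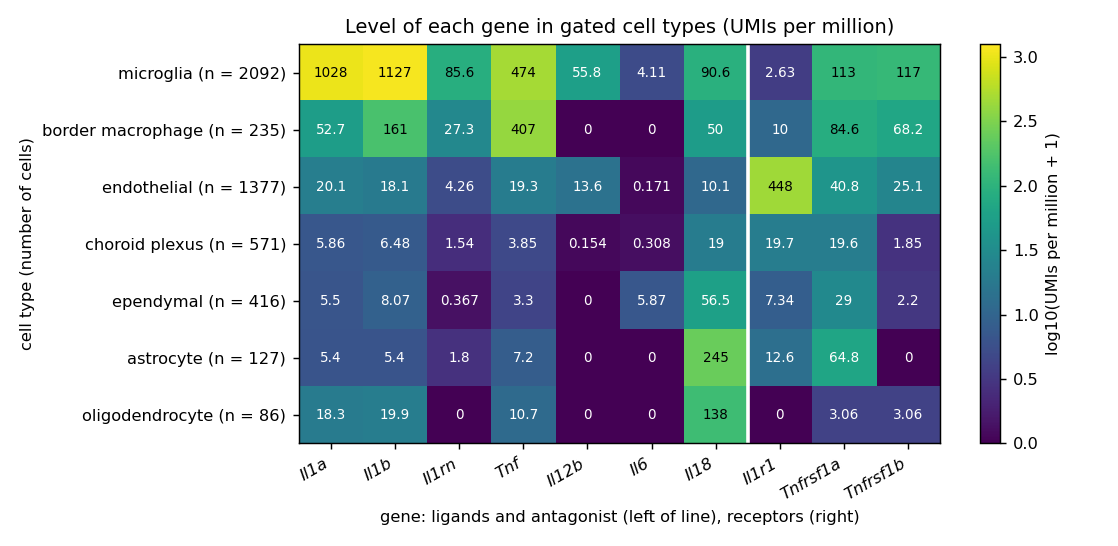
Level of each of the 10 genes (columns) in the 7 cell types with at least 50 cells (rows), printed as CPM and coloured by log10 of the level plus 1. The white line separates ligands and the antagonist from receptors: microglia lead for Il1a, Il1b, Il1rn, Tnf, Il12b, Tnfrsf1a and Tnfrsf1b, endothelial cells for Il1r1 at 448 CPM, and astrocytes for Il18 at 245 CPM.

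Below microglia, Il1a was low in the other 6 of the 7 larger cell types. Border macrophages, which sit in the meninges, choroid plexus and around vessels, came next at 52.7 CPM (40.04 to 68.2). However, 32 of their 58 Il1a UMIs were in 1 cell, and without it the level was 23.9 CPM. Endothelial cells were at 20.1 CPM and oligodendrocytes at 18.3 CPM, with overlapping intervals. Choroid plexus, ependymal cells and astrocytes were at 5.86, 5.50 and 5.40 CPM and could not be told apart by their intervals. Among the rarer types, the 6 cells gated as recruited-type monocytes had 73.7 CPM (29.6 to 152), from 7 UMIs in 4 cells.

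Outside microglia, Il1b was higher than Il1a in border macrophages and in the rarer myeloid types. Border macrophages had 161 CPM (138 to 186), which was 0.143 (0.122 to 0.166) of the microglial level and was 130.6 CPM without the cell just described. The 6 recruited-type monocytes held 147 Il1b UMIs in 5 cells, and the single neutrophil held 52. Among the larger types that are not myeloid, oligodendrocytes had 19.9 CPM, which overlapped with 18.1 CPM in endothelial cells. In oligodendrocytes 9 of the 13 UMIs were in 1 cell, without which the level was 6.24 CPM, an alternative added after the data were seen. Ependymal cells, choroid plexus and astrocytes were lower, at 8.07, 6.48 and 5.40 CPM, with overlapping intervals.

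Among the larger cell types, Il1rn, the antagonist, was highest in microglia and border macrophages, as were the ligands it opposes. It was at 85.6 CPM (81.0 to 90.5) in microglia, 27.3 CPM (18.4 to 38.9) in border macrophages and 4.26 CPM in endothelial cells. Astrocytes, choroid plexus and ependymal cells had 1.80, 1.54 and 0.367 CPM. No Il1rn UMI was seen in the 86 oligodendrocytes, where the floor of 3 counts is at 4.59 CPM. The 6 monocytes held 21 Il1rn UMIs.

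Among gated cells, Tnf was the ligand with the closest levels in microglia and border macrophages. It was at 407 CPM (370 to 447) in border macrophages and 474 CPM (463 to 485) in microglia, a ratio of 0.859 (0.779 to 0.945). A Tnf UMI was seen in 51.5% (44.9 to 58.0) of border macrophages, with a median of 4448 UMIs per cell, and in 64.7% (62.6 to 66.7) of microglia, with a median of 6686. In choroid plexus cells, an epithelium with a higher median of 10841 UMIs, the share was 1.93%. Among lymphocytes, 11 of the 18 T or NK cells held 31 Tnf UMIs. No Tnf UMI was found in the 6 monocytes.

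Border macrophages against microglia thus differed by ligand. Of the 10 genes, 5 were at least 2-fold lower in border macrophages (Il1a, Il1b, Il1rn, Il12b and Il6) and 1, Il1r1, was higher, where the background over 12278 genes was 10.5% lower and 17.3% higher. Il6 had 0 UMIs in border macrophages, and with that 0 set to 3 counts its ratio was 0.664, which is short of 2-fold. The Il1r1 value rests on 1 border macrophage, which held all 11 UMIs together with 17 UMIs of Flt1 and 4 of Cldn5, both endothelial genes. Border macrophages had 0 Il12b UMIs in 235 cells, which with the 0 set to 3 counts puts their level at most at 0.0489 of that in microglia. The immediate early and dissociation genes listed for comparison summed to 28647 CPM in border macrophages and 18906 CPM in microglia, and the part of cell handling in these differences was not tested.

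Il12b, the shared p40 subunit of interleukins 12 and 23, was rare among microglia and high where present. The gene was at 55.8 CPM (52.1 to 59.7) in microglia, and its 829 UMIs lay in 89 of 2092 cells (4.25%). In all, 14 cells held at least 50% of those UMIs, and 1 cell held 81. Endothelial cells came next at 13.6 CPM, but 73 of their 80 UMIs were in 1 cell, without which the level was 1.20 CPM. That cell also held 71 UMIs of Tnf, 34 of Il1a, 51 of the microglial gene Ctss and 21 of C1qa, beside 14 of the endothelial gene Flt1. The other 5 of the larger types had between 0 and 0.154 CPM, and no Il12b UMI was seen in the rarer types.

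Il6 was scarce in the 7 larger cell types, and no UMI was seen in the rarer ones. Microglia had 61 UMIs in 54 cells, or 4.11 CPM (3.14 to 5.28). Ependymal cells had 16 UMIs in 3 cells, 9 of them in 1 cell, or 5.87 CPM (3.36 to 9.53), so the intervals overlapped. Choroid plexus had 2 UMIs and endothelial cells 1. None was seen in border macrophages, astrocytes or oligodendrocytes, where the floor of 3 counts is at 2.73, 5.40 and 4.59 CPM.

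Il18 had a different order from the other ligands. Among the 7 larger types astrocytes were highest at 245 CPM (206 to 290), with oligodendrocytes at 138 CPM (111 to 169) and microglia at 90.6 CPM (85.8 to 95.6), all with intervals apart. Ependymal cells had 56.5 CPM and border macrophages 50.01 CPM, which overlapped. Choroid plexus was at 19.0 CPM and endothelial cells at 10.1 CPM. A UMI was seen in 50.4% (41.4 to 59.4) of astrocytes, 53.5% (42.4 to 64.3) of oligodendrocytes and 44.3% (42.1 to 46.4) of microglia, against 4.07% of endothelial cells. The median depth was 3658 UMIs in astrocytes and 3688 in endothelial cells.

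The Il18 receptor chains were hardly seen in the 7 larger types. Il18r1 had 4 UMIs in microglia and 1 each in endothelial cells, astrocytes and ependymal cells, and Il18rap had 6 in microglia and 1 in endothelial cells. The 18 T or NK cells, by contrast, held 50 Il18r1 UMIs in 10 cells, or 671 CPM (498 to 885), and 11 Il18rap UMIs, or 148 CPM (73.7 to 264). Of the 113 Il18r1 and 33 Il18rap UMIs in all passing barcodes, 56 and 12 were in ungated ones, and the single neutrophil held 3 of Il18rap. Il18bp, a secreted protein that binds interleukin 18, was at 49.3 CPM in microglia, 24.5 CPM in border macrophages and 5.40 CPM in astrocytes.

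Within microglia the amounts per cell were uneven. Il1a had a median of 4.5 UMIs per cell, a 90th percentile of 18 and a maximum of 58. Il1b had a median of 2, a 90th percentile of 24 and a maximum of 82, and Tnf a median of 1, a 90th percentile of 9 and a maximum of 65. So Il1b reached higher counts in single cells than Il1a from a lower median. The number of cells that held 50% of the microglial UMIs was 336 for Il1a, 249 for Il1b and 209 for Tnf. The share of microglia with a UMI was 87.4% for Il1a, 61.5% for Il1b, 64.7% for Tnf and 20.5% for Il1rn, against 4.50%, 3.85%, 2.32% and 0.799% of endothelial cells.

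Whether the same microglia hold several of these transcripts was examined after each cell was thinned to 2000 UMIs, which 2081 of the 2092 reach. Averaged over all possible thinnings, an Il1a UMI was expected in 74.1% of cells with an Il1b UMI and 60.4% of cells without, a difference of 13.8 percentage points. For Il1rn the shares were 12.9% with and 6.15% without, and for Il12b 3.93% with and 1.60% without. For Tnf they were 41.3% with and 40.8% without, a difference of 0.468 points. In the 1 thinning planned at the start the differences were 13.03 points for Il1a, 7.58 for Il1rn, 2.44 for Il12b and -1.75 (-5.96 to 2.46) for Tnf. A further 20 thinnings gave 10.2 to 16.9 points for Il1a and -2.29 to 3.36 points for Tnf, and these repeats and the average were added after the data were seen.

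Split by Tnf, the cells differed more in Il1a than in Il1b. Il1a was expected in 76.8% of microglia with a Tnf UMI and 60.8% without, and Il12b in 3.96% with and 1.961% without. Il1b was expected in 51.1% with and 50.6% without. Counting Il1a, Il1b and Tnf together, 13.7% of microglia were expected to hold none of them after thinning, 30.8% to hold 1, 38.3% to hold 2 and 17.3% to hold all 3. The median depth before thinning was 7278.5 UMIs in cells with Il1b and 5934 in cells without.

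**Figure D2:**
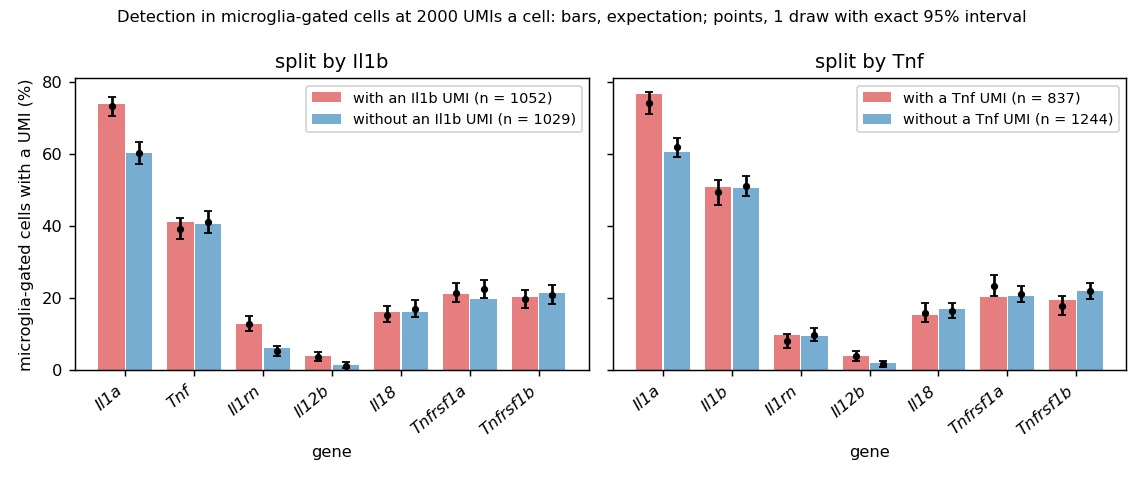
Share of microglia with a UMI of each gene at 2000 UMIs a cell, for cells with (red) and without (blue) an Il1b UMI on the left, and with and without a Tnf UMI on the right; bars are the average over all thinnings and points the planned thinning with its exact 95% interval, whose numbers of cells the legends give. Il1a stands at 74.1% with and 60.4% without Il1b, whereas Tnf stands at 41.3% with and 40.8% without Il1b.

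Between the same cells, the level of a few of the genes listed for comparison differed by 2-fold or more, where the comparison by Tnf was added after the data were seen. With over without a Tnf UMI, the NF-kB inhibitor Nfkbia, itself an NF-kB target, was higher by 1.06 on the log2 scale and the neutrophil chemokine Cxcl2 by 2.04. Over 20 thinnings these were 1.11 (1.01 to 1.23) and 1.83 (1.20 to 2.37). These were 1 of 12 NF-kB subunits and inhibitors and 1 of 6 measured response genes, and no gene of the other lists was called. Over all 10293 genes, 2.05% were at least 2-fold higher and 2.38% lower in this split. With over without an Il1b UMI, the heat shock genes Hspa1a and Hspa1b were at 0.477 and 0.420 of the level, and the decoy receptor Il1r2 at 0.467. These were 2 of 17 immediate early and dissociation genes and 1 of 4 measured genes of the interleukin 1 family. The background was 1.55% of genes higher and 2.95% lower. The immediate early and dissociation genes summed to 19058 CPM in cells with Il1b and 22620.5 CPM in cells without, and to 23103 CPM in cells with Tnf and 19284 CPM in cells without, and their part in these differences was not tested.

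Transcripts set free from broken cells reach all droplets, so the low levels outside microglia were set beside those of 8 genes of microglia and other macrophages (C1qa, C1qb, C1qc, Csf1r, Ctss, Ly86, Trem2 and Tyrobp), a set added after the data were seen. In endothelial cells these 8 stood at 1.10% to 2.31% of their microglial level, and Il1a and Il1b at 1.958% and 1.60% lay inside that range. In astrocytes the 8 stood at 0.218% to 0.657%, and Il1a and Il1b at 0.526% and 0.480% lay inside it too. In choroid plexus Il1a and Il1b stood at 0.570% and 0.575%, below the range of 0.821% to 1.25%. In endothelial cells, 7 cells held at least 50% of the Il1a UMIs and 5 those of Il1b. The microglia gate markers, which the gates themselves limit in other cells, were planned for this purpose and gave higher values. The 7 that were matched summed to 11.2% of their microglial level in border macrophages, 5.74% in astrocytes, 5.71% in ependymal cells, 4.54% in endothelial cells, 4.25% in oligodendrocytes and 3.44% in choroid plexus. The part of free RNA in the levels outside microglia was not tested.

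Tnfrsf1a and Il18 lay above both measures in several cell types. Tnfrsf1a reached 36.1% of the microglial level in endothelial cells, 57.4% in astrocytes and 25.6% in ependymal cells, but 2.70% from 2 UMIs in oligodendrocytes. Il18 reached 270.3% in astrocytes. Tnfrsf1b reached 21.4% in endothelial cells and lay near the 8 genes elsewhere, at 1.87% in ependymal cells, where their range was 0.667% to 1.59%, and 1.58% in choroid plexus. Tnf reached 4.06% in endothelial cells, above the range of the 8 genes and below the sum of the gate markers, and 71 of its 113 UMIs were in the cell described above that held most Il12b.

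**Figure D3:**
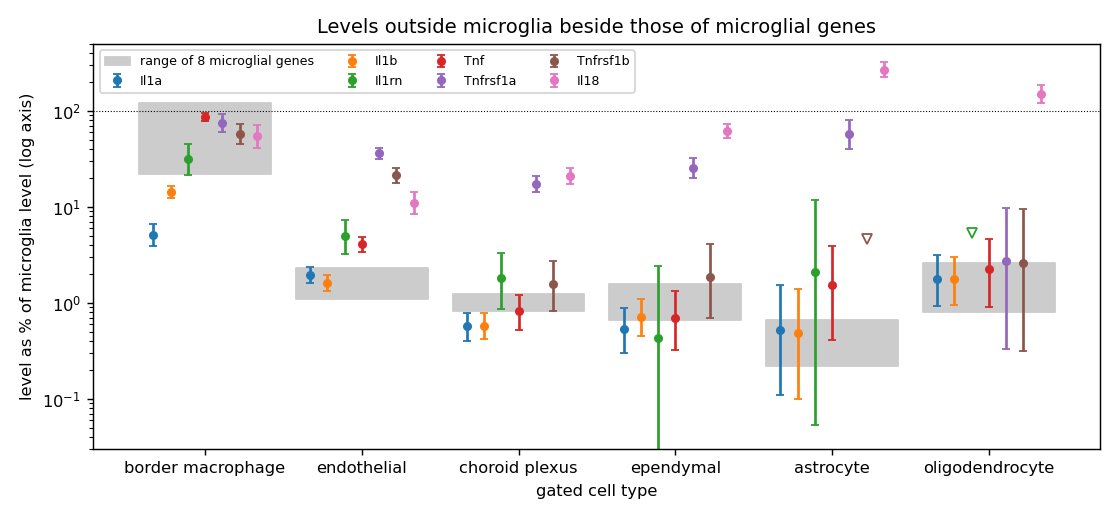
Level of each gene in 6 cell types as a percentage of its level in microglia (log axis), with 95% intervals, over grey bars that span 8 genes of microglia and other macrophages. Open triangles mark 0 UMIs and stand at the floor of 3 counts, and the dotted line marks the microglial level; Il1a and Il1b lie within or below the grey bars in endothelial cells, astrocytes, ependymal cells, choroid plexus and oligodendrocytes, and Tnfrsf1a and Il18 lie above them in astrocytes.

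Il1r1, the signalling receptor of interleukin 1, was an endothelial transcript in this library. It was at 448 CPM (431 to 466) in endothelial cells and 8.16 CPM (7.11 to 9.31) in all other gated cells, a ratio of 54.9 (47.8 to 63.3). Endothelial cells held 92.3% of its UMIs in gated cells. Against all other passing barcodes the ratio was 24.1. At least 1 UMI was present in 34.2% (31.7 to 36.8) of endothelial cells, and in 1.82% of microglia, whose median depths were 3688 and 6686. Of the 10 genes, Il1r1 alone was at least 2-fold higher in endothelial cells and 8 were at least 2-fold lower, where the background was 16.1% higher and 33% lower.

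The other 6 larger cell types had little Il1r1. Choroid plexus cells had 19.7 CPM (16.5 to 23.5), astrocytes 12.6 CPM (5.07 to 26.0), ependymal cells 7.34 CPM and microglia 2.63 CPM (1.87 to 3.59). Neighbours in that order overlapped except for ependymal cells and microglia. The border macrophage UMIs were all in the 1 cell described above. The astrocyte value rests on 7 UMIs in 5 cells. The 86 oligodendrocytes had none, with the floor of 3 counts at 4.59 CPM. Among the rarer types, the 8 mural cells had 166 CPM (61.0 to 362), from 6 UMIs in 3 cells.

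The partner chain, decoy and brakes of the receptor each had an order of their own. Il1rap, the accessory chain that Il1r1 needs to signal, was at 301 CPM (261 to 346) in oligodendrocytes and 17.9 CPM in the other gated cells, at 16.4 CPM (13.3 to 20.0) in endothelial cells and at 18.2 CPM in microglia. The decoy receptor Il1r2 was at 11.98 CPM in microglia and 13.6 CPM in border macrophages, against 1.36 CPM in endothelial cells. Sigirr, a receptor known to dampen interleukin 1 signalling, was at 52.2 CPM (46.5 to 58.4) in endothelial cells and 0.931 CPM in the other gated cells, a ratio of 56.1. Irak3, another brake on the pathway, was 5.26-fold higher in endothelial cells.

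Endothelial cells were divided by markers of vessel type into 276 venous, 233 arterial and 518 capillary cells, with 350.0 not set. Il1r1 was at 1287 CPM (1230 to 1347) in venous cells and 102 CPM (88.6 to 118) in capillary cells, a ratio of 12.6 (10.8 to 14.6). In arterial cells it was at 61.3 CPM (46.9 to 78.7), which was 0.598 (0.441 to 0.801) of the capillary level. An Il1r1 UMI was seen in 80.1% (74.9 to 84.6) of venous cells, 12.02% (8.14 to 16.9) of arterial cells and 19.7% (16.4 to 23.4) of capillary cells. Median depths were 4326.5, 3895 and 3302 UMIs.

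**Figure D4:**
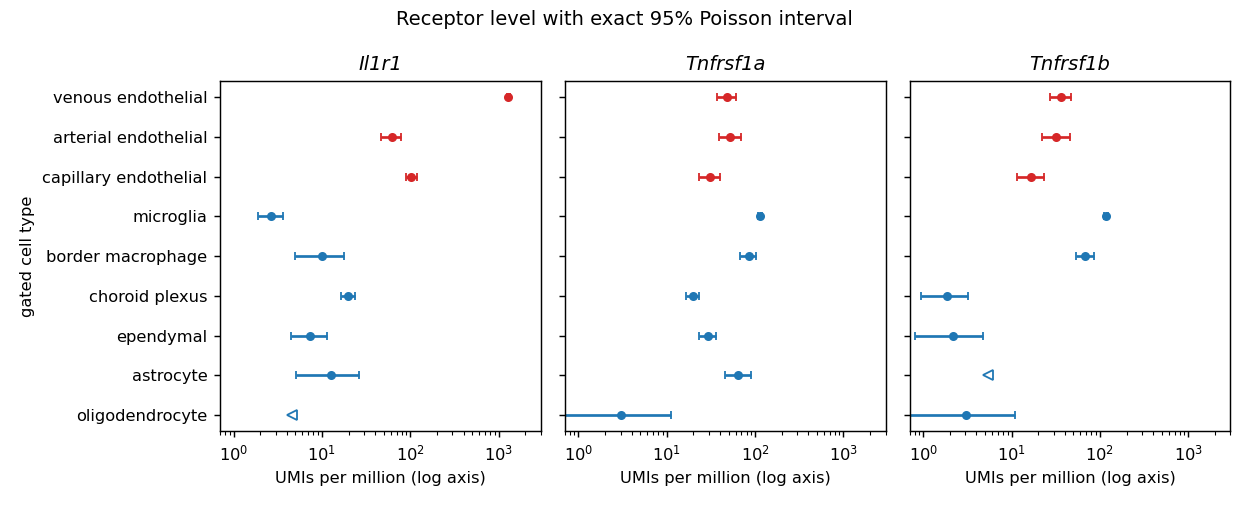
Levels of the 3 receptor genes in CPM (log axis) in the vessel zones of the endothelial cells (red) and in the other cell types (blue), with exact 95% Poisson intervals. Il1r1 stands at 1287 CPM in venous cells and 102 CPM in capillary cells, and an open triangle marks a cell type with 0 UMIs, placed at the floor of 3 counts.

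The TNF receptors varied less between vessel types. Tnfrsf1a was at 47.6 CPM (37.1 to 60.2) in venous, 52.2 CPM (39.0 to 68.5) in arterial and 30.7 CPM (23.4 to 39.6) in capillary cells. Tnfrsf1b was at 36.1 CPM (27.0 to 47.2) in venous, 32.1 CPM (22.0 to 45.4) in arterial and 16.6 CPM (11.4 to 23.5) in capillary cells. The ratio of venous to capillary was 1.55 (1.08 to 2.23) for Tnfrsf1a and 2.17 (1.37 to 3.47) for Tnfrsf1b.

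Of the 9 of the 10 genes with enough UMIs in venous and capillary cells, 7 were at least 2-fold higher in venous cells, against a background of 6.77% of 10694 genes. Several of these are ligands held mainly by microglia. Tnf was at 63.3 CPM in venous and 4.68 CPM in capillary cells, a ratio of 13.5 that was 3.22 without the cell rich in Il12b, and Il1a had a ratio of 5.39 that was 2.79 without it. Il12b counts among the 7, yet all 73 of its venous UMIs were in that cell. The microglial gene C1qa was also at 450 CPM in venous, 259 CPM in arterial and 101 CPM in capillary cells. However, the share of cells with a C1qa UMI was alike, at 25.7% of venous, 25.3% of arterial and 25.1% of capillary cells. A single cell held 156 of the 661 venous C1qa UMIs, another 101 of the 258 arterial ones, and another 34 of the 194 capillary ones. Zones were set on summed marker UMIs, and the venous markers included Ctsc, whose level in microglia was not examined here. The part of microglial RNA in the ligand values, and in the choice of venous cells, was not tested.

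Known response genes of interleukin 1 and TNF were also higher in venous cells. Of 9 measured, 8 were at least 2-fold higher in venous cells, none was lower, and the median log2 ratio was 3.74, against 0.01 over all genes. Vcam1, an adhesion molecule for leukocytes, was at 425 CPM in venous and 14.0 CPM in capillary cells. Lcn2, which encodes lipocalin 2, was at 102 CPM in venous and 4.68 CPM in capillary cells. Ptgs2, the inducible cyclooxygenase, was 14.3-fold and Cxcl1, a neutrophil chemokine, 6.47-fold higher in venous cells.

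Icam1 and Sele, also adhesion molecules, are among the same 8 genes and are named after their values were seen. Icam1 was at 267 CPM in venous and 63.9 CPM in capillary cells. Sele had 27 UMIs in venous and 0 in capillary cells, at least 11.8-fold higher with the 0 set to 3 counts over the group. None of 17 immediate early and dissociation genes was called between these zones, and their sum was 31362 CPM in venous, 30465 CPM in arterial and 28394 CPM in capillary cells.

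In arterial cells the response list was less uniform. Of 8 measured genes 3 were at least 2-fold higher than in capillary cells, and none was lower, with a median log2 ratio of 0.40. Vcam1 was 10.7-fold higher, and Cxcl2 had 33 UMIs in arterial and 2 in capillary cells. Of the 10 genes, 1 of the 7 measured, Il1b, was at least 2-fold higher in arterial cells and none was lower, against a background of 6.34% higher and 3.88% lower. Il1b was at 27.1 CPM in arterial and 7.28 CPM in capillary cells, a ratio of 3.73 (1.89 to 7.69). Of its 27 arterial UMIs 13 were in 1 cell, and without that cell, an alternative added after the data were seen, the ratio was 1.962 (0.867 to 4.44), short of 2-fold.

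Tnfrsf1a, the broadly expressed TNF receptor, was above the floor of 3 counts in 6 of the 7 larger cell types. It was at 113 CPM (108 to 119) in microglia, 84.6 CPM (68.2 to 104) in border macrophages, 64.8 CPM (45.4 to 89.8) in astrocytes and 40.8 CPM (35.8 to 46.3) in endothelial cells. Ependymal cells had 29.0 CPM, choroid plexus 19.6 CPM, while oligodendrocytes had 2 UMIs, or 3.06 CPM, under their floor of 4.59 CPM. The intervals of neighbours overlapped from border macrophages through choroid plexus, while microglia stood above and oligodendrocytes below.

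Among the 7 larger cell types, Tnfrsf1b was highest in microglia, border macrophages and endothelial cells. It was at 117 CPM (112 to 123) in microglia, 68.2 CPM (53.6 to 85.5) in border macrophages and 25.1 CPM (21.2 to 29.5) in endothelial cells. Oligodendrocytes, ependymal cells and choroid plexus had 3.06, 2.20 and 1.85 CPM, the first from 2 UMIs. Among the rarer types, the 6 recruited-type monocytes had 316 CPM (213 to 451) and the 18 T or NK cells 255 CPM (154 to 398), with a UMI in 6 and 10 of them. No UMI was found in 127 astrocytes, where the floor of 3 counts is at 2.36% of cells, while Tnfrsf1a was seen in 18.9% of them.

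Genes of the machinery around these cytokines were counted in lists, chosen with earlier results of these data known. Over all genes, 13.9% were at least 2-fold higher and 40.7% lower in microglia than in other gated cells. In microglia, 7 of 8 inflammasome and processing genes were at least 2-fold higher than in other gated cells and none lower, with a median log2 ratio of 3.03 against -0.57 over all genes. Nlrp3, the sensor that assembles the inflammasome, was at 239 CPM in microglia and 12.6 CPM in the others. Pycard, its adaptor, was at 368 CPM in microglia and 33.1 CPM in the others. Nlrp1b, another sensor, was 24.1-fold higher and Casp4, an inflammatory caspase, 9.52-fold higher. Nek7, which Nlrp3 needs, was not called, at a ratio of 1.03.

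NF-kB subunits and inhibitors followed the same direction in microglia, with 11 of 12 higher, none lower, and a median log2 ratio of 2.08. Tnfaip3, an inhibitor of TNF signalling, was 11.3-fold and Rel, a subunit, 9.83-fold higher in microglia. Adaptors and kinases were mostly not called, with 4 of 18 higher, and Irak2 had a ratio of 6.44 and Birc3 one of 5.35. Of 9 measured response genes 4 were higher and 3 lower in microglia, where the background over all genes was 13.9% higher and 40.7% lower. Ccl2, a monocyte chemokine, was at 1613 CPM in microglia and 275 CPM in the others. Of 9 other interleukin 1 family genes 4 were higher and 3 lower, with Il18bp at 5.09-fold.

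For endothelial cells the counts ran the other way, though microglia are part of the cells they are set against, and over all genes 16.1% were higher and 33% lower. In them 1 of 8 inflammasome genes was higher and 6 lower, and 6 of 12 NF-kB genes were lower and none higher. Among response genes, Lcn2 was 58.5-fold and Cxcl1 11.8-fold higher in endothelial cells, and Ccl2 was at 0.0108 of the level in the other cells. The 17 handling genes, those of the immediate early and dissociation list, included 9 higher in endothelial cells, and 5 higher and 1 lower in microglia, each against all other gated cells. The part of cell handling in the list counts of microglia and endothelial cells was not tested.

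**Figure D5:**
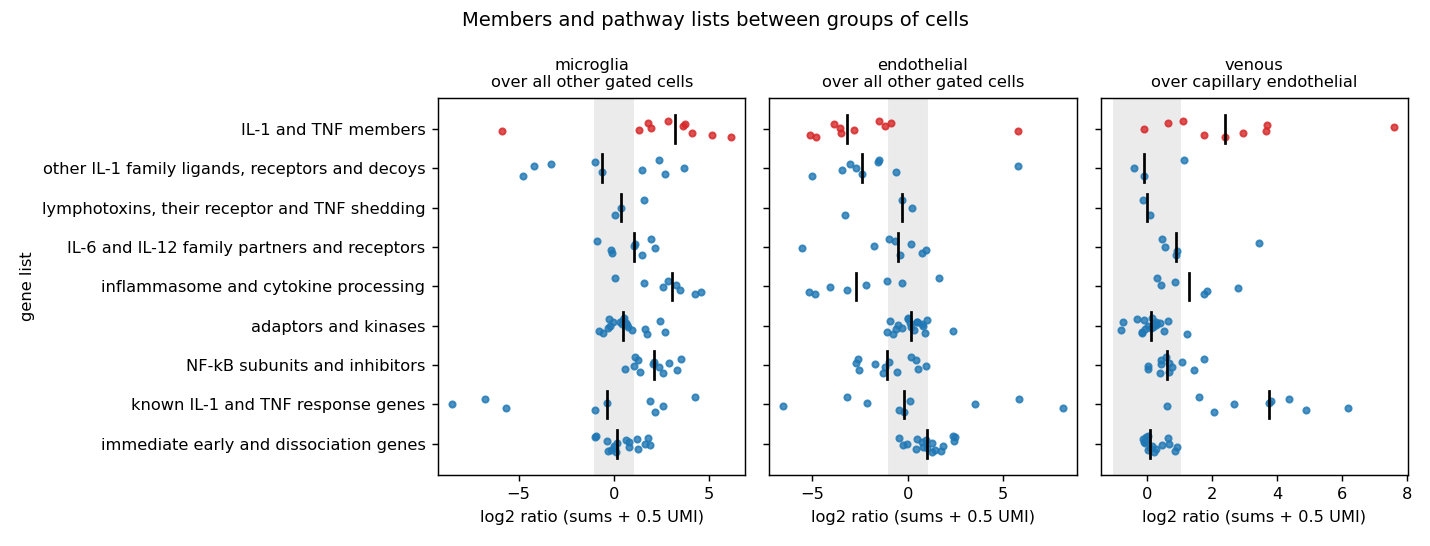
Log2 ratio of each measured gene (1 point a gene, sums with 0.5 UMI added) for the 10 genes in red and the lists around them in blue, in 3 comparisons, with black lines at the median of each list and grey bands at ratios under 2-fold. Inflammasome and NF-kB genes lie mostly right of the band in microglia, 7 of 8 and 11 of 12, as do 8 of 9 response genes in venous over capillary endothelial cells.

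Astrocytes had few of these transcripts apart from Il18 and Tnfrsf1a. All 8 inflammasome genes were at least 2-fold lower in astrocytes than in other gated cells, as were 10 of 12 NF-kB genes. All 17 immediate early and dissociation genes were lower too, with a sum of 1855 CPM in astrocytes, 18906 CPM in microglia and 30040 CPM in endothelial cells, and the part of cell handling was not tested. Of the 10 genes, 1 was higher and 8 were lower in astrocytes, against 27.9% and 21.2% of all genes. Among the 8 is Il6, with 0 UMIs, which the floor of 3 counts does not separate from the other cells. In oligodendrocytes 1 of the 10 genes, Il18, was higher and 9 were lower, against 18.8% and 28.9% of all genes, and Il6 had 0 UMIs there too, with the same limit. Oligodendrocytes also had Il33, an alarm cytokine of the same family, at 1162 CPM, against 2.31 CPM in the other gated cells.

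EGFP, carried by the vector, was seen in 69 passing cells, of which 32 were ependymal, 2 astrocyte, 1 microglial and 21 ungated. The remaining ones were of other gated types and were not compared. The comparison was planned for ependymal cells and astrocytes, and of these only ependymal cells held enough cells with EGFP. Il18 was at 26.3 CPM with and 59.3 CPM without an EGFP UMI, a ratio of 0.444 (0.160 to 0.989), which with cells thinned to 2000 UMIs was 0.326 (0.00802 to 1.93). Tnfrsf1a was at 48.2 CPM with and 27.2 CPM without, a ratio of 1.77 (0.844 to 3.37), but after the same thinning no Tnfrsf1a UMI was left with EGFP. The counts with EGFP are 6 and 11 UMIs, and a missing EGFP UMI does not show that a cell lacked the vector.

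Over the 7 cell types, the genes with the pattern most like 7 of the 10 genes were found by Pearson's correlation of log2(CPM + 1) among 11186 genes, as a description of 7 points from 1 library. Il1b was most like Cd300lf (0.993), Ctss and Cd83, and Il1a most like Tnfsf13b (0.988), Selplg and Bcl2a1a. Tnf was most like Nfkbid (0.997), Grn and Tbk1. Il1r1 was most like Cenpb (0.986), Ctla2a and Unc13b, and Tnfrsf1b most like Phf11b (0.992).

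Barcodes that were not gated also held these transcripts. Of the 1507, 730 had the microglial markers as their leading set, and they held 2993 Il1b UMIs, or 801 CPM, with Il1a at 607 CPM and Tnf at 327 CPM. Another 88 were led by the border macrophage markers, with Tnf at 184 CPM, Il1b at 399 CPM and Il1rn at 116 CPM. In gated border macrophages these were at 407, 161 and 27.3 CPM, so the order of Tnf and Il1b differed. With the gates as reported, ungated barcodes enter the ratios against all other passing barcodes and the totals over all passing barcodes, and no other ratio between cell types.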

How the data were processed

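RNA was measured in 1 single-cell library made with 10x 3' chemistry. The authors deposited raw UMI counts per gene and barcode. The submitters' processing notes name Cell Ranger 8.0.1 and the build GRCm39. For the annotation, a version was not given in the sources used here. Of the barcodes, 187 had under 500 genes or over 15% mitochondrial UMIs and were left out. Cell types were gated on 8 markers each (a marker counts at 2 UMIs, at least 3 needed, and the next type at no more than 0.5 of the share). Vessel zones needed 2 markers and a lead of 1.5. The marker symbols Fcrls and Pifo were not matched. The 10 genes, the 87 listed genes and the markers were chosen with earlier results of these data known.

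UMIs were summed per type and scaled to CPM. Intervals are exact 95% Poisson for levels, Clopper-Pearson for shares and conditional binomial for ratios. A gene was measured at 10 UMIs or more over both groups and called at 2-fold. Log2 ratios use sums with 0.5 UMI added. Up to 4 genes per list and comparison were named, with at least 20 CPM in a group, 2-fold or more, and intervals apart. Not every gene this rule selects is printed. Counts over the lists in vessel zones, astrocytes and oligodendrocytes, and by Tnf, were added after the data were seen. Doublets called by Scrublet in scanpy 1.11.5 (261, 4.02%) were kept, and removed as an alternative. Thinning took 2000 UMIs without replacement. Tools were Python 3.11.15, numpy 2.4.6, scipy 1.17.1, pandas 2.3.3 and matplotlib 3.10.9, and the ratio step was tested on simulated data. The barcodes held no repeats, and no test across samples was possible.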

Additional observations from a re-analysis of the deposited data

How the results depend on the processing

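No paired analysis was possible because the single-cell data are 1 library. Of 108 alternative values of the main comparisons, 76 moved by less than their counting interval. Among the ratios of microglia or endothelial cells to other cells none crossed 1, while the Tnf difference by Il1b and the Tnfrsf1a ratio by EGFP, below, did change side. The values that moved are given here, each as the ratio of microglia to other gated cells unless another is named, and the cause was not tested. With markers counted at 1 UMI, Tnf was 11.4 and endothelial Il1r1 68.3. With 0.5 of the markers needed, Il1a was 87.3, Il1b 45.6, Il1rn 22.1, Il12b 118 and Tnf 15.8. Without called doublets, Il1a was 84.4 and Il1b 42.02. With cells weighed equally, Il1b was 31.3, Il6 7.08, Tnf 11.1 and endothelial Tnfrsf1b 0.296. Against all other passing barcodes, which include the 730 ungated ones with leading microglial markers, Il1a was 8.32, Il1b 6.505, Il1rn 3.22, Il18 2.03, Il12b 4.24, Tnf 5.51 and endothelial Il1r1 24.1. Against gated cells without the other myeloid types, an alternative chosen after seeing the data, Il1a was 89.1, Il1b 98.7, Il1rn 37.5 and Tnf 39.3.

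The co-detection differences, in percentage points, also moved. For Il1rn with Il1b they were 3.43 at 1000 UMIs, 10.1 at 3000 and 15.2 with no thinning. For Tnf with Il1b they were 3.36 with no thinning and 4.30 without called doublets, against -1.75 in the planned thinning and 0.468 on average over all thinnings. The value without called doublets also used a new thinning draw, and only 8 microglia were called doublets, so draw and doublets cannot be told apart. Over 20 thinnings with these cells kept, the difference ran from -2.29 to 3.36. For Il1a with Tnf they were 20.04 at 1000 UMIs and 16.6 as the mean of 20 thinnings. In ependymal cells thinned to 2000 UMIs, the ratio of Tnfrsf1a with over without EGFP was 0. Depth limits Il6, Il12b outside microglia, and every value in the astrocytes and oligodendrocytes, which number 127 and 86.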
